A study of Homo sapiens with 6 samples.

Results

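The cytochrome P450 genes were followed in Calu3 cells, a human lung adenocarcinoma line, after siRNA against BRD8. Members were all genes whose symbol begins with CYP and a digit and whose mean over the 6 libraries was at least 10 normalized counts, which gave 33 of the 68 P450 symbols among 26364 genes in the deposited table. Membership was therefore chosen by measured values, the mean level over both groups, while the comparison between the groups played no part in the rule. All 33 members also had a mean of at least 10 normalized counts within each group. By substrate class, 22 members were grouped as families CYP1 to CYP4. Of these, 10 act on drugs and pollutants, 9 act on fatty acids and 3 have less settled substrates. CYP2D7, among the last 3, is annotated as a polymorphic pseudogene. Another 6 members act on sterols or vitamins, among them CYP2R1, which by its name also belongs to family CYP2. The other 5 are CYP20A1, which has no settled substrate, and 4 further pseudogenes or antisense genes.

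P450 enzymes are haem proteins that insert an oxygen atom into a substrate. Those of the endoplasmic reticulum take their electrons from the reductase POR, and those of mitochondria from ferredoxin. The liver holds most of the drug-metabolising forms, but airway epithelium also expresses several, among them CYP1A1, CYP1B1, CYP2B6, CYP2J2, CYP2S1, CYP3A5 and CYP4B1. The receptor AHR is known to induce the CYP1 genes, while the nuclear receptors NR1I2 and NR1I3, together with HNF4A, are known to drive CYP2B, CYP2C and CYP3A genes. Sterol-metabolising forms such as CYP51A1 follow cholesterol supply instead.

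Total RNA was sequenced from 3 libraries treated with siRNA against BRD8 (siBRD8) and 3 treated with a negative control siRNA (siNC), each at 20 nmol with a lipid transfection reagent. BRD8 is a bromodomain subunit of the NuA4/TIP60 histone acetyltransferase complex. The labels name Calu3 and 1 catalogue reagent against BRD8 throughout, give no time after transfection, and do not tell whether the libraries stem from separate cultures. The p-values thus cover library-to-library spread that may be technical. The extraction text speaks of HBE cells, and the cell line label was followed here.

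BRD8 itself had 1312, 1084 and 1156 normalized counts in the siBRD8 libraries, against 2751, 2928 and 3067 in the siNC libraries. It fell by 1.30 on the log2 scale (SE 0.0904, adjusted p = 1.13e-04). BRD8 shares exon sequence with KIF20A on the other strand, which these unstranded libraries cannot separate. Of the stretches of 50 bases in BRD8, 1.17% are shared with other genes, KIF20A among them. KIF20A, a mitotic kinesin, averaged 1807 normalized counts in siBRD8 cells and 2878 in siNC cells and fell by 0.67 (adjusted p = 0.00198). Library totals were 34427104 to 37896467 reads in siBRD8 and 33640814 to 37081766 reads in siNC, so that 3 reads are worth 2.84 to 3.24 normalized counts. Of all 15354 genes tested, 1549 rose and 1371 fell. Leaving out siNC replicate 2, which stood apart on the second principal component, gave 2445 and 2784, and leaving out siNC replicate 3 gave 832 and 528.

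More P450 genes were higher than lower after BRD8 siRNA, and the higher ones lay mostly among the drug- and fatty acid-metabolising families. Of the 33 members 13 rose, 1 fell and 19 did not pass an adjusted p of 0.05, with a median log2 fold change of 0.33. Over all genes tested 10.1% rose and 8.93% fell, and the median was -0.01. All 3 siBRD8 libraries lay above all 3 siNC libraries for 17 members, below them for 3, and overlapped with them for 13. Over all genes the groups did not overlap for 18.9% with siBRD8 above and for 17.9% with siBRD8 below. A rise of at least 1 on the log2 scale that also passed the test was seen for 5 members, CYP2C8, CYP3A5, CYP4F11, CYP4B1 and CYP3A4, where 1.81% of all genes had one. RNA was measured over whole cultures, so more cells with a transcript and more transcript per cell cannot be told apart.

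**Figure D1:**
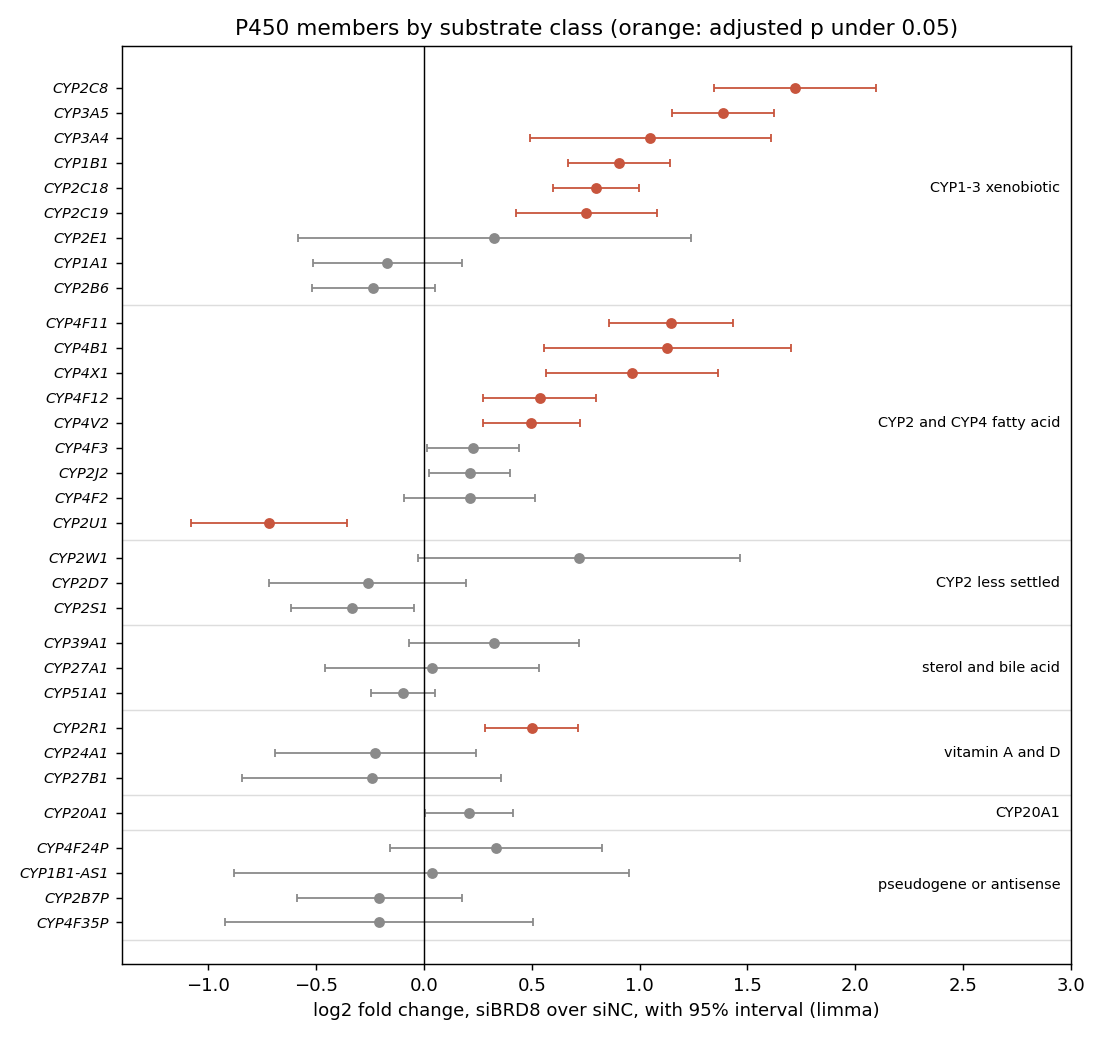
Log2 fold change of 32 P450 genes, siBRD8 over siNC (x axis, with the 95% interval from limma), grouped by substrate class down the page. Orange marks the genes with an adjusted p under 0.05: 6 of the 9 xenobiotic genes drawn, 5 higher and 1 lower of 9 fatty acid genes, and CYP2R1 of the vitamin genes.

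By class the counts were as follows. Of the 22 members grouped as CYP1 to CYP4, a group without CYP2R1, 12 rose and 1 fell, with a median log2 fold change of 0.63. Within them, the 10 xenobiotic genes of families 1 to 3 had 7 rises, no fall and a median of 0.85. The 9 fatty acid genes of families 2 and 4 had 5 rises, 1 fall and a median of 0.50. The 6 sterol or vitamin genes had 1 rise, no fall and a median of -0.03. Summed over the 22 CYP1 to CYP4 members, the RNA came to 15385, 14244 and 15396 normalized counts in siBRD8 libraries, against 10150, 8945 and 9698 in siNC libraries, a ratio of 1.56. Without CYP1B1, the most abundant of them, the ratio was 1.38. Over the 6 sterol or vitamin members the sums were 16771, 17190 and 17725 in siBRD8 libraries and 18513, 17641 and 18391 in siNC libraries, a ratio of 0.948.

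Levels differed widely among the members. Per kilobase of exon, CYP51A1 stood first at 4593 normalized counts in siBRD8 cells and 4908 in siNC cells, followed by CYP1B1 (1134 and 608) and CYP2C18 (962 and 552). CYP51A1 alone made up 53.9% of the summed P450 level per kilobase in siBRD8 cells and 64.8% in siNC cells. These 3 genes and CYP20A1 held ranks 1 to 4 in both groups. Below them the order changed most for CYP2C8, at rank 15 in siBRD8 cells and 24 in siNC cells, CYP3A5, at rank 11 and 19, and CYP2U1, at rank 25 and 17. Lowest per kilobase were CYP2E1, at 2.34 normalized counts per kilobase in siBRD8 cells and 1.96 in siNC cells, and CYP1B1-AS1, at 1.75 and 1.74. The length used joins the exons of all annotated transcripts of a gene. For CYP2E1, with a mean of 20.7 normalized counts, it came to 9621 bases.

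**Figure D2:**
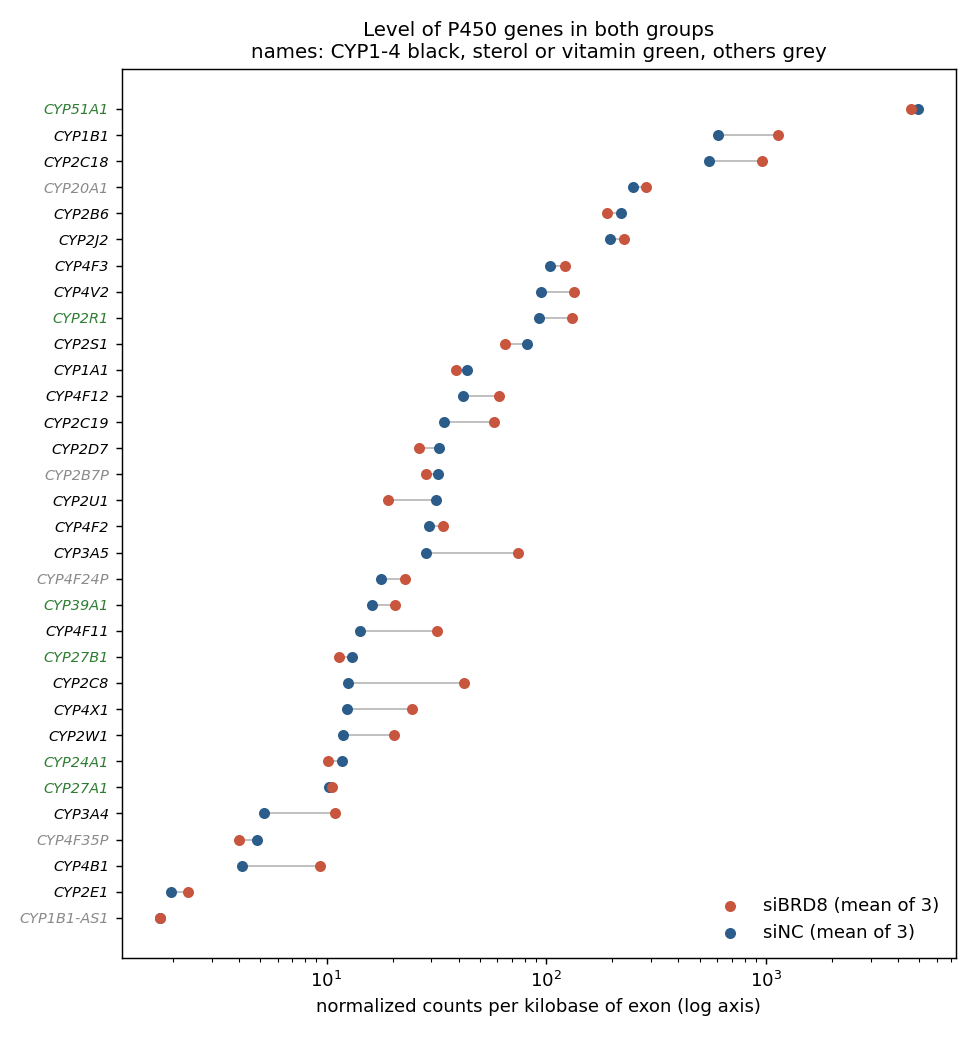
Mean level of 32 P450 genes (normalized counts per kilobase of exon, log axis) in siBRD8 (orange) and siNC (blue) libraries, ordered by the level in siNC. CYP51A1 lies highest in both groups, at 4593 in siBRD8 and 4908 in siNC, and CYP2C8 shows the widest gap, at 42.2 in siBRD8 and 12.5 in siNC.

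CYP2C8, CYP2C18 and CYP2C19, which lie in 1 cluster on chromosome 10, rose. CYP2C8, an enzyme known for oxidising paclitaxel and for making epoxides of arachidonic acid, had 121, 109 and 95.7 normalized counts in siBRD8 libraries, against 29.4, 35.6 and 31.5 in siNC libraries. The lowest siBRD8 value was well above the highest siNC value, and CYP2C8 had the largest fold change of the 33 members (log2 fold change 1.72, SE 0.17, adjusted p = 4.49e-04).

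CYP2C18, the most abundant of the 3 in both groups, had 2564, 2177 and 2239 normalized counts in siBRD8 libraries, against 1298, 1282 and 1427 in siNC libraries. Its log2 fold change was 0.80 (SE 0.088, adjusted p = 7.98e-04), and every siBRD8 library lay above every siNC library. CYP2C19, which activates clopidogrel and clears omeprazole, had 239, 193 and 247 normalized counts in siBRD8 libraries, against 152, 118 and 132 in siNC libraries. Its log2 fold change was 0.75 (SE 0.14, adjusted p = 0.00806), with no overlap. CYP2C18 shares 0.787% of its stretches of 50 bases with other P450 genes, CYP2C8 1.85% and CYP2C19 6.46%, so a small part of the reads could be exchanged between relatives. With genes outside the family counted the shares are 36.6% for CYP2C18 and 49.1% for CYP2C19, since AL583836.1 overlaps both on the same strand, so how the authors' counting treated that overlap could change their levels.

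The CYP3A genes on chromosome 7 rose as well. CYP3A5, the main CYP3A form of lung, had 535, 487 and 485 normalized counts in siBRD8 libraries, against 203, 173 and 200.2 in siNC libraries. Its 3 siBRD8 values were 485 or more, its 3 siNC values 203 or less, and the rise was 1.39 on the log2 scale (SE 0.10, adjusted p = 1.51e-04). CYP3A4, the main drug-oxidising P450 of liver, was less abundant per kilobase of exon (10.9 normalized counts in siBRD8 cells and 5.17 in siNC cells, where CYP3A5 had 74.4 and 28.4). CYP3A4 had 37.4, 34.1 and 30.9 normalized counts in siBRD8 libraries, against 17.1, 19.4 and 12.2 in siNC libraries. Its groups did not overlap and its log2 fold change was 1.05 (SE 0.25, adjusted p = 0.0192). That call ended without siNC replicate 3 (adjusted p = 0.0717) and without siBRD8 replicate 1, 2 or 3 (0.0667, 0.0667 and 0.0536). Of the 50-base stretches of CYP3A4 7.99% are shared with other CYP3A genes.

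The sequences before the annotated starts of 4 of these higher genes are shown with that of CYP1A1, a P450 gene that was not called, because the receptors named above are known to act on such regions. Each is 250 bases, 5′ to 3′ on the gene's strand, from RefSeq on GRCh38.p14, and ends at the base before the start. Capitals mark matches on either strand to the motifs TATAAA for TBP, CAAAGTCCA for HNF4A, TGTTTAC for forkhead factors and GCGTG for AHR with ARNT.
CYP2C8 (chr10:95069498-95069747, reverse strand): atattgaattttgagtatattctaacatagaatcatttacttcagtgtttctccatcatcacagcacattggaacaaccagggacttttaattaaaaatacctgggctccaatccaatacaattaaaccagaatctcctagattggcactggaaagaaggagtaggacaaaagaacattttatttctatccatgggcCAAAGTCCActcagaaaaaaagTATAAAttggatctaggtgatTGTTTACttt
CYP2C19 (chr10:94762431-94762680, forward strand): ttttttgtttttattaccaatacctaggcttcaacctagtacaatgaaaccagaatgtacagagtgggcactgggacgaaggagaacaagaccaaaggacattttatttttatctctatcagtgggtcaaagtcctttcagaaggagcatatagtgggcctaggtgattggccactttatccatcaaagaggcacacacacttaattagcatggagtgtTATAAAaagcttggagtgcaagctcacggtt
CYP3A5 (chr7:99679997-99680246, reverse strand): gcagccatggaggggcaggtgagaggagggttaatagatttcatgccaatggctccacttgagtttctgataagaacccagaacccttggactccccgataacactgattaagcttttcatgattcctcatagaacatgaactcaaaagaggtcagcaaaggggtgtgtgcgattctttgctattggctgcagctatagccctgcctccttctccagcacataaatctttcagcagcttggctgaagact
CYP3A4 (chr7:99784185-99784434, reverse strand): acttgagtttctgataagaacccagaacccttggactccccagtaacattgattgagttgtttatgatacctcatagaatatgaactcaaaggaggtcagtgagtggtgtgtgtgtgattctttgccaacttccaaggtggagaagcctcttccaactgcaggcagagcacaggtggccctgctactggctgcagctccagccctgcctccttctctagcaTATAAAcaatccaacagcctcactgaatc
CYP1A1 (chr15:74725529-74725778, reverse strand): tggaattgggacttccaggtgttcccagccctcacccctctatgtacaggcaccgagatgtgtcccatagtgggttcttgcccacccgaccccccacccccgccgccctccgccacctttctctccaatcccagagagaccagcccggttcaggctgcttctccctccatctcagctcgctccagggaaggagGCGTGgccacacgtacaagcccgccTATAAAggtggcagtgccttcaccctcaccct

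In these stretches CYP2C8 holds CAAAGTCCA at 53 bases before the start, TATAAA at 31 and TGTTTAC at 10. CYP2C19 and CYP3A4 hold TATAAA at 31 and 29 bases before the start. CYP1A1 holds GCGTG at 57 and TATAAA at 32, and CYP3A5 holds none of these motifs. Past the stretch shown, CYP2C8 holds another TATAAA at 39 bases after its start. The bases beside that match resemble those beside the TATAAA of CYP2C19. Distances from the annotated starts may therefore not be comparable between CYP2C8 and CYP2C19, which was not tested. Promoter windows, from 250 bases before to 50 after a start, were found for 23 of the 33 members, in 28 windows. CAAAGTCCA lay in 3 of them, in CYP2C8, CYP2B6 and CYP2R1, and in 0.384% of all 35116 windows. TGTTTAC lay in 3, in CYP2C8, CYP4F11 and CYP4F3, against 3.42% of all windows. GCGTG lay in 9 windows (36.5% of all) and TATAAA in 9 (11.5%), while TCACCCCAC (sterol response element), TTGCGCAA (CEBP factors) and TGACCTTTG (HNF4A and RXR) lay in none, against 0.430%, 0.151% and 0.407%. Aligned end to end, the CYP3A5 and CYP3A4 windows were identical at 57.7% of columns. The 4 other pairs aligned were at 41.8% to 48.6%, CYP2C8 with CYP2C19 among them at 47.0%. Columns with gaps count in these shares, and that pair took 381 columns for windows of 300 bases. It had 179 identical bases, against 154 for CYP2C8 with CYP3A5 and 145 for CYP2C8 with CYP1A1. Identity over paired bases alone was not computed, so the shares do not rank how alike the windows are. A match in a window is a description only, since no binding was measured.

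Among the other xenobiotic members CYP1B1 rose, while CYP1A1, CYP2B6 and CYP2E1 were not called. CYP1B1, which hydroxylates oestradiol and activates polycyclic hydrocarbons, had 6814, 6339 and 7306 normalized counts in siBRD8 libraries, against 4082, 3154 and 3728 in siNC libraries. The groups did not overlap, and CYP1B1 rose by 0.91 on the log2 scale (SE 0.10, adjusted p = 9.15e-04). The exons of CYP1B1 overlap CYP1B1-AS1 and RMDN2 on the opposite strand, which had 13.01 and 173 normalized counts in siBRD8 cells and 12.9 and 136 in siNC cells. CYP1A1, the classical AHR target, had 157, 129.9 and 114 normalized counts in siBRD8 libraries, against 135, 148 and 167 in siNC libraries. These overlapped, with a log2 fold change of -0.17 (95% interval -0.51 to 0.17, adjusted p = 0.484).

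CYP2B6, which oxidises bupropion and cyclophosphamide, had 863, 619 and 646 normalized counts in siBRD8 libraries, against 806, 806 and 863 in siNC libraries. The siBRD8 library of replicate 1 stood with the siNC libraries and the other two lay below them. The log2 fold change was -0.23 (95% interval -0.52 to 0.05, adjusted p = 0.239), and without siBRD8 replicate 1 the adjusted p was 0.0344. CYP2E1, which oxidises ethanol, was low and scattered, at 18.02 to 31.2 normalized counts in siBRD8 libraries and 10.2 to 30.3 in siNC libraries (log2 fold change 0.33, adjusted p = 0.615).

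**Figure D3:**
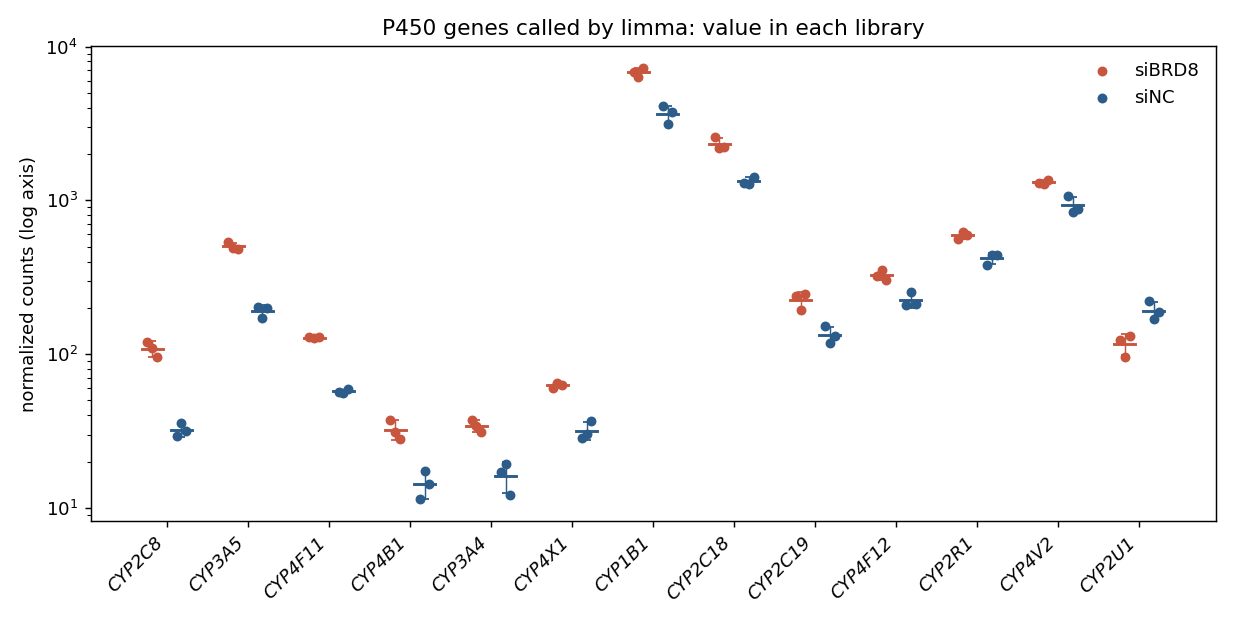
Normalized counts (log axis) of 13 P450 genes that passed the test in each of the 3 siBRD8 (orange) and 3 siNC (blue) libraries, with the mean and SD as lines. The groups do not overlap for any of the 13, and CYP2U1 is the only one of them with the siBRD8 libraries below.

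In the fatty acid and eicosanoid class 5 of 9 members rose and 1 fell. CYP4F11, which hydroxylates long-chain fatty acids, had 129, 127 and 129 normalized counts in siBRD8 libraries, against 56.9, 56.1 and 58.9 in siNC libraries. Both groups were tight and far apart (log2 fold change 1.15, SE 0.13, adjusted p = 7.96e-04). CYP4F12, a neighbour that also oxidises antihistamines, had 323, 352 and 304 normalized counts in siBRD8 libraries, against 209, 254 and 212 in siNC libraries. Its log2 fold change was 0.54 (SE 0.12, adjusted p = 0.0135), a call that ended without siNC replicate 3 (adjusted p = 0.0651) and without siBRD8 replicate 2 (0.0601). CYP4F3 and CYP4F2, which inactivate leukotriene B4, were not called, at log2 fold changes of 0.23 (95% interval 0.02 to 0.44, adjusted p = 0.124) and 0.21 (-0.09 to 0.51, 0.306). The siBRD8 libraries lay above the siNC libraries for CYP4F3, with 649 to 717 against 521 to 607 normalized counts, and overlapped with them for CYP4F2, with 100.5 to 111 against 86.4 to 101.5 normalized counts.

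CYP4B1, a lung form known in animals for activating furan toxins, had 37.4, 31.3 and 28.0 normalized counts in siBRD8 libraries, against 11.4, 17.3 and 14.2 in siNC libraries. The groups did not overlap (log2 fold change 1.13, SE 0.25, adjusted p = 0.0154), but the call ended without siNC replicate 3 (adjusted p = 0.0535), siBRD8 replicate 1 (0.0595) or siBRD8 replicate 2 (0.0538). CYP4X1, its neighbour on chromosome 1, which can oxidise anandamide, had 60.3, 64.5 and 62.8 normalized counts in siBRD8 libraries, against 28.4, 30.2 and 36.6 in siNC libraries. All siBRD8 libraries were above all siNC libraries, with a log2 fold change of 0.96 (SE 0.18, adjusted p = 0.00675).

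CYP4V2, a fatty acid hydroxylase mutated in Bietti crystalline dystrophy, had 1291, 1287 and 1356 normalized counts in siBRD8 libraries, against 1068, 845 and 883 in siNC libraries. It rose by 0.50 on the log2 scale (SE 0.0995, adjusted p = 0.00976), a call that was lost without siNC replicate 3 (adjusted p = 0.0524). Its exons overlap KLKB1 on the same strand, which had 54.3 normalized counts in siBRD8 cells and 49.1 in siNC cells. CYP2J2, which makes epoxides of arachidonic acid, had 665 to 685 normalized counts in siBRD8 libraries, all above the 558 to 624 of the siNC libraries. Its log2 fold change of 0.21 (95% interval 0.03 to 0.40) had an adjusted p of 0.108, and of 0.0297 without siNC replicate 2.

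CYP2U1, which hydroxylates long-chain fatty acids, was the 1 member that fell. It had 123, 95.8 and 131 normalized counts in siBRD8 libraries, against 221, 168 and 187 in siNC libraries. Every siBRD8 library lay below every siNC library, and CYP2U1 fell by 0.72 on the log2 scale (SE 0.16, adjusted p = 0.0153). The call ended without siNC replicate 1 (adjusted p = 0.0552), siNC replicate 3 (0.0562) or siBRD8 replicate 2 (0.0524), and AC096564.1 and AC096564.2 overlap its exons on the opposite strand.

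Of the CYP2 members with less settled substrates none was called. CYP2S1, an epithelial form, had 169, 208 and 185 normalized counts in siBRD8 libraries, all below the 211, 262 and 234 of the siNC libraries. Its log2 fold change was -0.33 (95% interval -0.62 to -0.04, adjusted p = 0.104). After correction for transcript length and GC content CYP2S1 was called lower (adjusted p = 0.00656). CYP2W1, known mainly from tumours, overlapped between groups, at 33.3, 70.2 and 64.8 normalized counts in siBRD8 libraries against 44.5, 31.3 and 23.4 in siNC libraries (log2 fold change 0.72, 95% interval -0.03 to 1.47, adjusted p = 0.165). For CYP2D7, the polymorphic pseudogene, the log2 fold change was -0.26 (adjusted p = 0.410). Of its 50-base stretches 33.1% are shared with CYP2D6 and CYP2D8P.

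The sterol and vitamin members were mostly not called. CYP51A1, the lanosterol demethylase of cholesterol synthesis, had 16037, 16402 and 16943 normalized counts in siBRD8 libraries, against 17947, 17034 and 17788 in siNC libraries. The groups did not overlap, yet the log2 fold change was only -0.10 (95% interval -0.24 to 0.05, adjusted p = 0.352). As the deepest member it also had the narrowest interval, although 18.2% of its 50-base stretches are shared with P450 pseudogenes and an antisense gene. The share is 81.1% with AC000120.2 counted, which overlaps it on the same strand. CYP39A1, an oxysterol hydroxylase, had 57.2 to 75.4 normalized counts in siBRD8 libraries and 47.5 to 54.0 in siNC libraries (log2 fold change 0.33, adjusted p = 0.232). CYP27A1, a mitochondrial sterol hydroxylase, had 27.1 to 38.9 normalized counts in siBRD8 libraries and 27.4 to 34.1 in siNC libraries, which overlapped (log2 fold change 0.04, adjusted p = 0.924).

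CYP2R1, the liver enzyme that starts the activation of vitamin D, was the 1 member of this class that rose. It had 561, 619 and 599 normalized counts in siBRD8 libraries, against 381, 438 and 440.0 in siNC libraries. The groups were separate, and its log2 fold change was 0.50 (SE 0.095, adjusted p = 0.00797). CYP27B1, which completes the activation, had 29.4 to 55.1 normalized counts in siBRD8 libraries and 36.6 to 50.2 in siNC libraries (log2 fold change -0.24, adjusted p = 0.569), and its exons overlap METTL1. CYP24A1, which inactivates the vitamin, had 31.2 to 47.4 normalized counts in siBRD8 libraries and 43.2 to 50.8 in siNC libraries (log2 fold change -0.23, adjusted p = 0.492). For both, the groups overlapped and the 95% intervals ran from -0.84 to 0.36 and from -0.69 to 0.24.

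CYP20A1 had 863 to 891 normalized counts in siBRD8 libraries, all above the 689 to 832 of the siNC libraries, with a log2 fold change of 0.21 (adjusted p = 0.144, and 0.0375 after the length and GC correction). Besides CYP2D7, 4 members are pseudogenes or antisense genes, and none of these was called. Their log2 fold changes were -0.21 for CYP2B7P, 0.34 for CYP4F24P, 0.04 for CYP1B1-AS1 and -0.21 for CYP4F35P, with overlapping groups in each. The lowest members by mean were CYP4F35P, at 12.7 normalized counts, and CYP1B1-AS1, at 12.98.

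**Figure D4:**
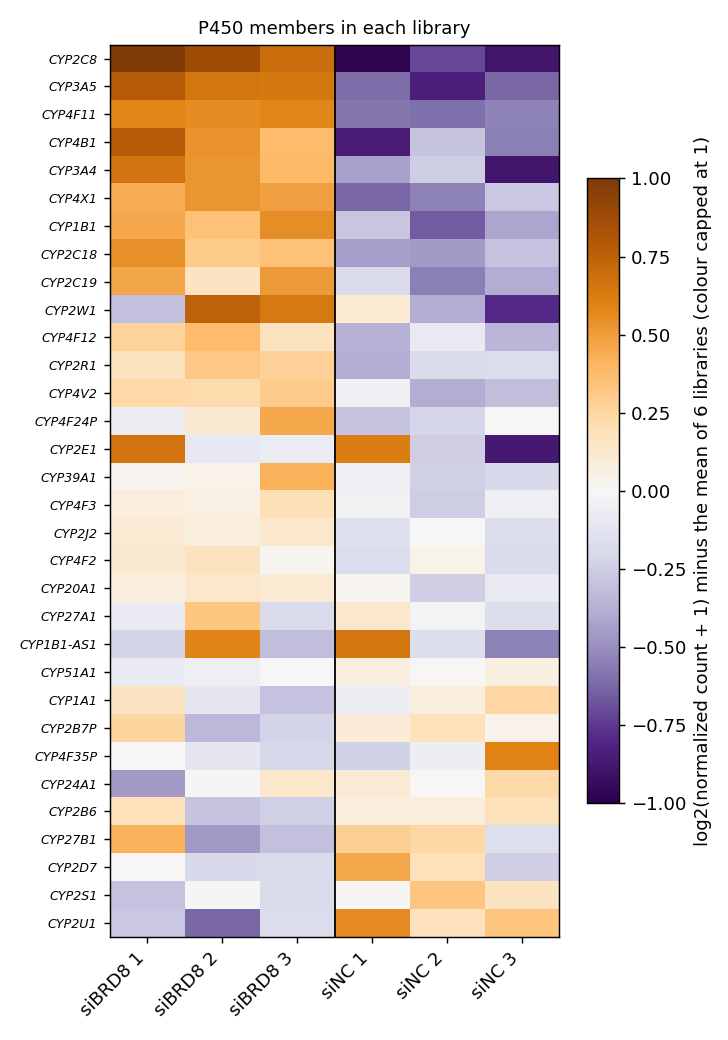
The values of 32 P450 genes (rows, ordered by fold change) in each library (columns, siBRD8 left of the line), as log2(normalized count + 1) minus its mean over the 6 libraries, with colour capped at 1. The upper rows, CYP2C8 to CYP4V2, are orange in all 3 siBRD8 libraries and purple in all 3 siNC libraries, except CYP2W1, where siBRD8 replicate 1 and siNC replicate 1 go against their groups.

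Several members sit in gene clusters, and their nearest tested neighbours, taken by position on each side, were read from the same fit. Around CYP2C8, CYP2C18 and CYP2C19, none of NOC3L, TBC1D12, HELLS, PDLIM1 and ALDH18A1 was called, at log2 fold changes of -0.29 to 0.20. Beside CYP3A5 and CYP3A4, AZGP1 rose by 0.45 (adjusted p = 0.0446), though not when any library except siNC replicate 2 was left out (0.0695 to 0.171), and the other 5 neighbours were not called. In the CYP4F cluster on chromosome 19, 2 of 5 members rose and the neighbour TPM4 rose by 0.66 (adjusted p = 5.69e-04). CYP4B1 and CYP4X1 on chromosome 1 lie near PDZK1IP1, which rose by 1.34 (adjusted p = 9.77e-04), and near ATPAF1 and STIL, which fell by 0.40 and 0.37 (0.00827 and 0.0445), the call of STIL also resting on every library except siNC replicate 2 (0.0814 to 0.179 without one). At the second cluster on chromosome 19, CYP2B7P, CYP2B6 and CYP2S1 were not called, while the neighbours AXL and HNRNPUL1 fell by 0.66 and 0.35 (8.93e-04 and 0.00681, the second at 0.0502 without siNC replicate 3).

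**Figure D5:**
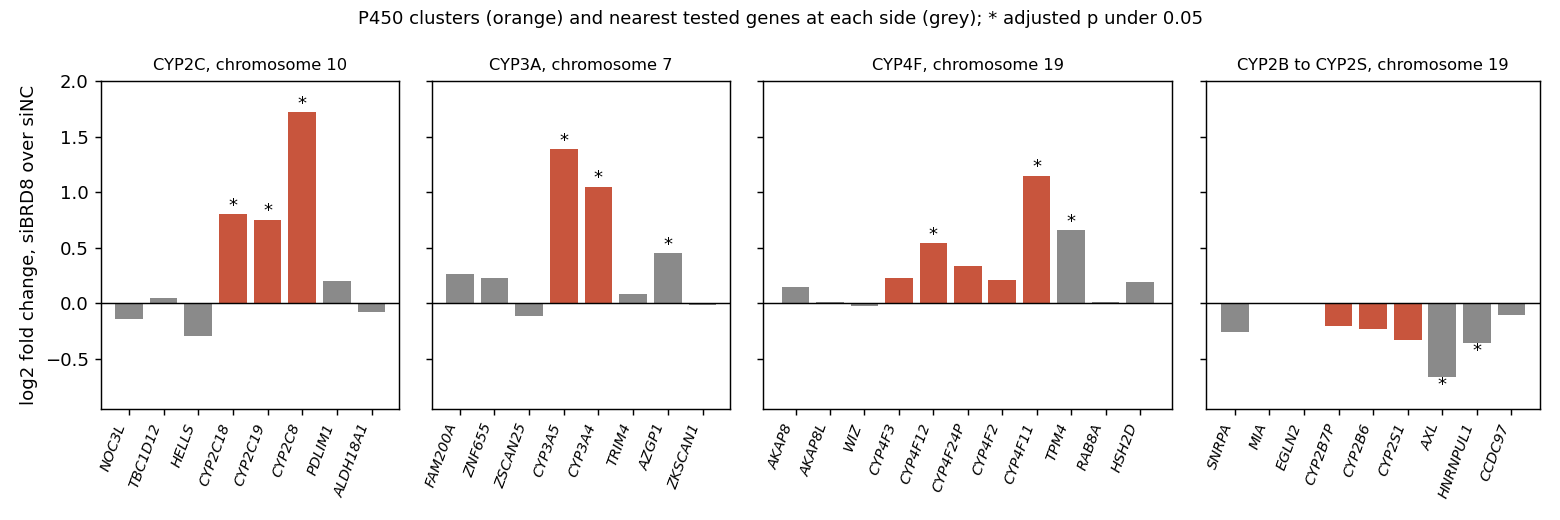
Log2 fold change, siBRD8 over siNC, of P450 genes (orange) and of the nearest tested genes at each side (grey) in 4 clusters, in order along the chromosome and not to distance. The bars of CYP2C18, CYP2C19 and CYP2C8 carry the star of an adjusted p under 0.05 and none of their 5 neighbours drawn does.

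The genes that serve P450 enzymes were read from lists of related genes. For this and the lists that follow, the shares over all genes tested were 10.1% higher and 8.93% lower, with a median of -0.01. No list was tested as a whole. Of 28 tested genes of electron transfer and haem supply, 5 rose and 2 fell (median 0.10). Their smallest adjusted p-values were those of CPOX, a haem synthesis enzyme, which fell by 0.57 (adjusted p = 0.00126), and of HMOX1 and HMOX2, which break haem down and rose by 0.71 and 0.54 (0.00603 and 0.0114). FECH, which puts iron into haem, fell by 0.33 (0.0186). HMOX2 was not called without siNC replicate 3 (0.0578), nor FECH without siNC replicate 1 or 3 or siBRD8 replicate 2 or 3 (0.0602 to 0.0955). The other 3 that rose, named after their values were seen, were CYB5R4, BLVRB and CYB5B. CYB5R4 was not called without siNC replicate 3 or siBRD8 replicate 2 or 3, nor the other two without any library except siNC replicate 2 (0.0740 to 0.151 over the 3 genes). POR, the shared electron donor and likewise chosen after its values were seen, had 2379 ± 129.5 normalized counts in siBRD8 cells and 1964 ± 181 in siNC cells (SD, n = 3 each; log2 fold change 0.28, adjusted p = 0.0561). POR was called higher without siNC replicate 2 (0.00374), after the length and GC correction (0.0158) and in the authors' deposited table (0.0376). It was also called higher with DESeq2 (0.0332), with the replicate block (0.0353) and with the same total per library (0.0499).

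Of 12 tested xenobiotic sensors and AHR targets none rose and TIPARP, an AHR target, fell by 0.41 (median 0.06). TIPARP had an adjusted p of 0.0148, which became 0.0509 to 0.0757 without siNC replicate 1 or 3 or siBRD8 replicate 1 or 2. Chosen after their values were seen, AHR had a log2 fold change of 0.09 (adjusted p = 0.734) and HNF4A of -0.25 (0.0532). HNF4A was called lower in the authors' deposited table (0.0361), with DESeq2 (0.0364), with the replicate block (0.0413), after the length and GC correction (0.00773), among genes with a mean of at least 50 (0.0487), without siNC replicate 2 (0.0274) and without siBRD8 replicate 1 (0.0477). The drug receptor NR1I2 was under the limit, at 4.99 normalized counts in siBRD8 cells and 7.36 in siNC cells. NR1I3, the other drug receptor, had 10.9 and 10.2 normalized counts (adjusted p = 0.698).

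Among 33 tested genes listed under conjugation and hydrolysis, many but not all of which can act on P450 products, 8 rose and 2 fell (median 0.17). SULT1E1, the oestrogen sulfotransferase, rose by 1.85 (adjusted p = 1.25e-05), with 910.0 ± 30.9 normalized counts in siBRD8 cells and 251 ± 3.53 in siNC cells (SD, n = 3 each). SULT2B1, SULT1C2 and UGT2B15 rose by 1.41, 1.34 and 0.88 (adjusted p = 3.95e-04, 5.07e-04 and 4.00e-04). The 2 that fell, named after their values were seen, were UGT8 and UGT1A1, by 0.52 and 0.92 (0.0276 and 0.0365). UGT8 lost its call without siNC replicate 1 or 3 or siBRD8 replicate 1 or 2 (0.0698 to 0.117), and UGT1A1 without siNC replicate 1 or 3 or siBRD8 replicate 2 or 3 (0.0674 to 0.146).

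Of 10 tested eicosanoid genes, which share arachidonic acid with the CYP2J, CYP2C and CYP4 enzymes, 5 rose and none fell (median 0.29). They were the lipoxygenase ALOX5 (0.56, adjusted p = 0.00502), the phospholipase PLA2G4A (0.51, 0.00533), the cyclooxygenases PTGS2 (0.57, 0.00915) and PTGS1 (0.60, 0.00978) and, named after its values were seen, the prostaglandin E synthase PTGES (0.77, 0.0146). PTGES was not called without siNC replicate 3 (0.0521), siBRD8 replicate 2 (0.0505) or siBRD8 replicate 3 (0.0710). That list also holds the P450 enzymes without a CYP symbol. The thromboxane synthase TBXAS1 had 612 ± 19.6 normalized counts in siBRD8 cells and 629 ± 62.5 in siNC cells (SD, n = 3 each; adjusted p = 0.835), and the prostacyclin synthase PTGIS was under the limit.

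Around CYP51A1, 1 of 22 cholesterol synthesis genes rose and 3 fell (median -0.10). SREBF2, the transcription factor of the pathway, fell by 0.51 (adjusted p = 0.00127). PMVK rose by 0.41 (0.0407) and MSMO1 fell by 0.26 (0.0346), but both calls ended when any library except siNC replicate 2 was left out (adjusted p = 0.0668 to 0.139). Of 19 oxysterol, bile acid and steroid genes 3 rose and 1 fell (median 0.12). SRD5A3, which makes dolichol, CH25H, a cholesterol hydroxylase, and HSD17B2, which inactivates oestradiol, rose by 1.26, 1.25 and 0.88 (adjusted p = 1.01e-04, 0.00130 and 0.00801). HSD17B11 fell by 0.25 (0.0252), a call that ended without any library except siNC replicate 2 (0.0589 to 0.106).

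Of 21 genes of vitamin D and retinoic acid handling 6 rose and 2 fell (median 0.22). The vitamin D-binding protein GC rose by 2.23 (adjusted p = 1.73e-04), with 209.9 ± 45.1 normalized counts in siBRD8 cells and 43.5 ± 4.68 in siNC cells (SD, n = 3 each). The retinal dehydrogenase ALDH1A1 rose by 1.45 and its relative ALDH1A3 fell by 0.70 (adjusted p = 1.01e-04 and 0.00130). RDH10, which makes retinal, rose by 0.66 (0.00153), and LRAT, which stores retinol as esters and was named after its values were seen, fell by 0.45 (0.00816).

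Marker genes of cell types were read beside these results. All 8 epithelial markers were above the limit, with a summed level of 447893 to 503690 normalized counts in siBRD8 libraries and 333192 to 419904 in siNC libraries. Most of the sum came from KRT8, KRT18 and KRT19. CDH1, MUC1, ELF3 and KRT8 rose in the main fit (adjusted p = 0.00394, 0.00917, 0.0109 and 0.0313). EPCAM (log2 fold change -0.005, adjusted p = 0.972), KRT18, KRT19 and CLDN4 were not called. Of 6 hepatocyte markers 5 were above it, at 22846 to 24147 normalized counts in siBRD8 libraries and 13391 to 17930 in siNC libraries, nearly all from SERPINA1. Among these ALB rose by 3.25 (adjusted p = 4.68e-04), at 67.6 normalized counts in siBRD8 cells and 6.49 in siNC cells, SERPINA1 rose by 0.64 (0.00464), and FGB, CPS1 and TTR were not called, with APOA1 under the limit. The 4 basal airway markers summed to 841 to 994 normalized counts in siBRD8 libraries and 372 to 547 in siNC libraries, with KRT14 higher, TP63 higher except in the authors' deposited table (adjusted p = 0.0584) and without siNC replicate 3 or any 1 siBRD8 library (0.0533 to 0.0720), and KRT5 and NGFR not called. Ciliated markers summed to 5109 to 8292 normalized counts in siBRD8 libraries and 5330 to 7040 in siNC libraries, with FOXJ1 and DNAI1 under the limit. Fibroblast markers summed to 212 to 228 normalized counts in siBRD8 libraries and 213 to 226 in siNC libraries, with COL1A2 at 0 reads. Among them LUM rose, at 54.7 normalized counts in siBRD8 cells and 28.5 in siNC cells (log2 fold change 0.91, adjusted p = 0.0211), a call that was lost without siNC replicate 3 or siBRD8 replicate 1 or 3 (0.0519 to 0.0751). COL1A1 was not called (162 normalized counts in siBRD8 cells and 189 in siNC cells, adjusted p = 0.190), although every siBRD8 library lay below every siNC library. No endothelial marker reached the limit. Of the blood markers only CD68, also a lysosomal protein of other cells, reached it and rose, at 1926 normalized counts in siBRD8 cells and 1486 in siNC cells (log2 fold change 0.38, adjusted p = 0.0390), a call that was lost when any library except siNC replicate 2 was left out (0.0612 to 0.138). The part of these marker differences in the P450 results was not tested.

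The remaining 35 P450 symbols lay under the limit and were not tested. Closest below it were CYP26B1, a retinoic acid hydroxylase, at a mean of 9.92 normalized counts, and CYP2A6, the nicotine oxidase, at 9.07. Among them were CYP1A2 and CYP3A7, at 1.02 and 7.92 normalized counts in siBRD8 cells and 1.33 and 5.98 in siNC cells. For 5 symbols, CYP19A1, CYP2D6, CYP7A1, CYP7B1 and the readthrough CYP3A7-CYP3A51P, all libraries were at 0 reads. Of their 50-base stretches, CYP3A7-CYP3A51P shares 96.4% and CYP2D6 34.4% with other P450 genes. How the authors' counting treated such shared reads could bear on these zeros, which was not tested.

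The authors' deposited table lists 13 members as higher and 1 as lower at an adjusted p under 0.05. The log2 fold changes in the authors' deposited table were 1.76 for CYP2C8, 1.39 for CYP3A5 and -0.72 for CYP2U1.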

How the data were processed

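The data are RNA-seq libraries of 6 Calu3 samples, grouped by the labels' treatment. Per the submitters' processing notes the tools were STAR 2.6, featureCounts 1.6.3, DESeq2 1.22.1, on hg19; the sources used here name no annotation or strand setting, and the kit named in the labels does not mark strand. The deposited expression values are a normalized signal: read counts scaled by the authors with 1 size factor for each library. Undoing this scaling gave whole reads for 100% of values within 0.01. The deposited table also holds the authors' comparison, which gives log2 fold changes with errors, a test score and p-values.

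Because the values were normalized, limma 3.58.1 (R 4.3.3) with a variance trend was run on log2(normalized count + 1) over 15354 genes (mean of 10 or more). Fold changes on this scale understate low genes. P-values were adjusted by Benjamini and Hochberg over all genes tested, with a threshold of 0.05, and the script was tested on simulated data. Intervals are 95%. Exon lengths, overlaps and shared 50-base stretches come from GENCODE 29, matched by symbol (24491 matched), and promoters from RefSeq on GRCh38.p14; no coordinates were moved between builds. Genes named are BRD8, every P450 member, and of each list the 4 called genes with the smallest adjusted p; others are marked. The members and lists were chosen with earlier results of these data known. Replicate libraries differed beyond counting noise (chi-square over degrees of freedom 6.63 to 51.9), so each counted once. The floor of 3 reads covers counting error only, because the reads carry no molecular identifiers. Alternatives were edgeR 4.0.16 and DESeq2 1.42.0 on the recovered reads, the authors' comparison, other pseudocounts, filters and scalings, a correction for length and GC content, a replicate block, and leaving out each library. Some genes that enter the counts and fits are not reported here by name.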

Additional observations from a re-analysis of the deposited data

How the results depend on the processing

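Over 17 other settings the 33 members had 550 comparisons with their main value, of which 522 kept direction and side of the threshold, 13 lost a call, 5 gained one and 10 changed sign. Of the 14 called members 9 kept their call in every setting that gave a value; the exceptions were CYP3A4, CYP4B1, CYP4F12, CYP4V2 and CYP2U1, each when 1 library was left out. The members called higher numbered 9 to 14 when libraries were left out in turn (9 without siNC replicate 3, 14 without siNC replicate 2), 14 after correction for length and GC content and 10 with a mean of at least 50, where CYP4X1, CYP3A4 and CYP4B1 were not tested. On the recovered reads edgeR's quasi-likelihood test and DESeq2 each called 13 members higher and 1 lower, with 1640 and 1727 of all genes higher and 1329 and 1609 lower. The members called lower numbered 0 to 2 when libraries were left out, and 2 after the same correction, where CYP2S1 was the second. Sign changes concerned genes that were not called: CYP27A1 (-0.067 with quantile normalization, -0.069 after the length and GC correction, and -0.11 to 0.14 when libraries were left out), CYP1B1-AS1 (-0.10 with quantile normalization and -0.25 to 0.37), CYP2E1 (-0.026 to 0.72) and CYP4F35P (-0.37 to 0.040). Outside the members, the signs of AHR (-0.092 to 0.21), NR1I3 (-0.37 to 0.76) and TBXAS1 (-0.075 to 0.047) also changed when libraries were left out, none of them called. All genes called higher numbered 832 to 2445 and lower 528 to 2784 when libraries were left out, and 2328 and 2241 after the length and GC correction. The cause of these shifts was not tested.

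The replicate numbers were not found to pair the samples, since deviations of libraries with the same number correlated at -0.0845, 0.335 and 0.155. With a replicate block, 13 members were called higher and 2 lower, CYP2U1 and CYP2S1 (adjusted p = 0.0486), and 1939 and 1962 of all genes. Members near the limit rest on few reads: the 95% interval of the log2 fold change runs from -0.88 to 0.95 for CYP1B1-AS1 and from -0.92 to 0.51 for CYP4F35P. Smaller differences in these genes could go undetected. The parts of read depth and of library-to-library spread in the width of the intervals were not separated.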
